A study of Homo sapiens with 3 samples.

Results

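The cells described here are VCaP prostate cancer cells that held much or no RNA of ERG, an ETS-family transcription factor, in 1 single-cell RNA-seq library. They were taken from the 815 cells of VCaP parental with 10000 to 30000 unique molecular identifiers (UMIs, each marking 1 captured RNA molecule), at least 300 genes and at most 25% mitochondrial UMIs. A cell with at least 4 ERG UMIs was called ERG-high, which held for 128 cells (15.7%), and a cell with 0 ERG UMIs was called ERG-undetected, which held for 237 cells (29.1%). The other 450 cells had 1 to 3 ERG UMIs. The series given here has 3 libraries of 1000 barcodes each, so 365 cells of 3000 barcodes were compared.

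The study followed the response of prostate cancer cell lines to enzalutamide (ENZ), a drug that blocks the androgen receptor. VCaP parental was VCaP, an established line derived from a prostate cancer metastasis and labelled sensitive to the drug, kept for 48 h in 0.1% DMSO, the vehicle. VCaP–ENZ48 was the same line in 10 µM ENZ for 48 h, and LNCaP–ENZ168 was the LNCaP line, also labelled sensitive, in 10 µM ENZ for 168 h. Each was 1 culture and 1 Drop-seq library, so no difference below has a replicate, a test or a p-value.

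In VCaP a rearrangement on chromosome 21 joins the start of TMPRSS2 to most of ERG, so that the androgen-responsive promoter of TMPRSS2, a cell-surface serine protease of luminal prostate cells, drives an ERG protein that normal prostate epithelium does not make. The androgen receptor, bound to its hormone, switches on genes of secretory luminal cells such as kallikreins and prostatic acid phosphatase. Drop-seq reads the 3′ end of a transcript, so RNA of the fusion is counted under ERG and not under TMPRSS2.

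Levels are in CPM (counts per 1e6), the UMIs of a gene summed over the cells of a group and divided by all UMIs of those cells, times 1e6. Ratios of a gene are log2((CPM + 1) of ERG-high cells/(CPM + 1) of ERG-undetected cells), and ratios of a summed list are without the added 1. The interval after a value is an exact 95% interval, which covers counting error only. After the ratio of a gene, it is the interval of the ratio without the added 1. A gene was called past the fold when its ratio was at least 0.5 in size and its mean over both groups was at least 50 CPM. The cells were chosen by their ERG UMIs, so their ERG level is a description.

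The sequences below show 2 kinds of promoter, those of genes lower in ERG-high cells and that of the most abundant androgen-induced gene that was higher in them. Whether these promoters bear on the differences was not tested. They are RefSeq sequence of GRCh38.p14, + strand, ending at the base before the RefSeq start, except for CCNB1, where 15 bases next to it are left out. CCNB1 encodes cyclin B1, CDC20 an activator of the anaphase-promoting complex, CEP55 a protein of the final cut between daughter cells, and CDK1 the kinase that drives mitosis. In these 4, capitals mark CCAAT, the element bound by NF-Y, and TTTGAA, a core of the cell-cycle homology region, each on either strand (TTCAAA is TTTGAA on the other strand).
CCNB1, chr5:69167020-69167134: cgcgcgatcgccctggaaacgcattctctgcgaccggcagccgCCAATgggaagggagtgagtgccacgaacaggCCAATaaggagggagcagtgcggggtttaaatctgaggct
CDC20, chr1:43358851-43358980: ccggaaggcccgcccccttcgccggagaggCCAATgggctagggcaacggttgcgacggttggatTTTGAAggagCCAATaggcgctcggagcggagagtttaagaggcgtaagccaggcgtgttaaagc
CEP55, chr10:93496482-93496611: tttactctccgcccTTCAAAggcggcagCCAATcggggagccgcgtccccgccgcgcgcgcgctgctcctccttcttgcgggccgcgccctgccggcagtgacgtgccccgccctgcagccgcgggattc
CDK1, chr10:60778161-60778330: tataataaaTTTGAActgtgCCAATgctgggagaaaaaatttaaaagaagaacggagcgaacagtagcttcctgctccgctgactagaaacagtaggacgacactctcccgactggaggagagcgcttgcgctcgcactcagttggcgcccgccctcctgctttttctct
KLK2, chr19:50873239-50873438: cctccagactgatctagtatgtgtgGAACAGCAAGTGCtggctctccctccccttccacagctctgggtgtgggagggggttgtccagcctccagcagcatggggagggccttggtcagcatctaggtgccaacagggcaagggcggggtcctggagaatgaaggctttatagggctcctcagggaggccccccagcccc
In KLK2, which encodes a secreted kallikrein protease, capitals mark a match to GNACA, 4 further bases and GTNC, a loose form of the paired androgen receptor element.

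The leading genes were ranked by the bounds of their ratios among genes with at least 50 CPM in either group, leaving out genes already picked by name, among them KLK2, SLC45A3, NPY and TOP2A. All 7 of the 10 leading lower genes for which RefSeq windows were at hand (CCNB1, KIF20A, CDC20, CEP55, DLGAP5, KPNA2 and CDK1) held CCAAT in the 250 bases before their start, and 6 held it at least 2 times. Over all 27305 genes with a window, 37% held it and 11.5% held it at least 2 times. TTTGAA was in 5 of the 7, against 16.1% of all genes. Of the 9 leading higher genes given here, which by this ranking do not include KLK2, 5 had a window. CCAAT was in 4 of these (TRPM8, STEAP2, SLC30A4 and TTC6) and TTTGAA in 0 of 5, and AGAACA, the androgen receptor half-site, was in TRPM8 alone, against 14.8% of all genes. The loose paired element of KLK2 was in 2.2% of all genes and in 0 of the 5, and its letters were chosen on KLK2. These are matches of letters and were chosen with the results known.

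ERG (chromosome 21, 38380027 to 38661780, GRCh38) had 1523 UMIs in the 815 cells, a mean of 1.87 UMIs a cell and a highest count of 18. The variance over cells was 4.56, against 2.10 expected if every cell had the same ERG level and differed in depth and counting alone. At such a common level, 140 cells without an ERG UMI and 107 cells with at least 4 would be expected, against the 237 and 128 found. Many of the ERG-undetected cells may thus hold ERG RNA that was not captured, and they cannot be told apart from cells without it. ERG was at 288 CPM in ERG-high cells (737 UMIs, median 5 UMIs a cell).

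**Figure D1:**
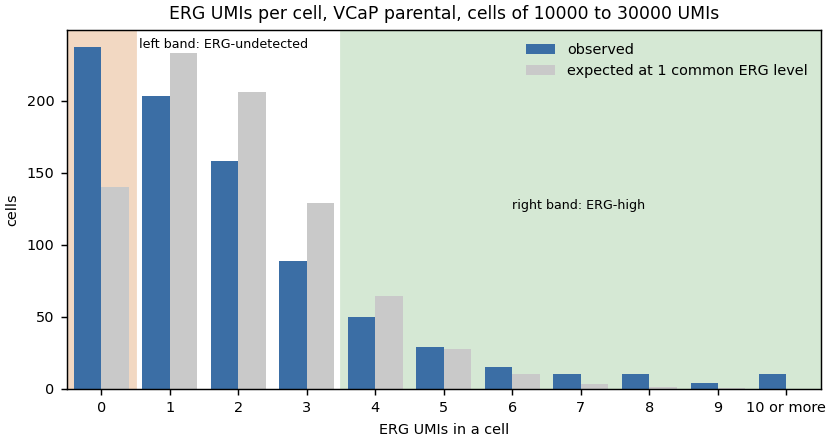
Number of VCaP parental cells (y axis) by ERG UMIs in the cell (x axis, last class 10 or more), observed and expected at 1 common ERG level given each cell's depth. The 237 observed cells at 0 stand above the 140 expected, and cells of 1 to 4 UMIs are fewer than expected.

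LNCaP does not carry the fusion, and 0 of 945 LNCaP–ENZ168 cells had an ERG UMI, which allows a share of up to 0.317%, at a median of 5388 UMIs. That library held no VCaP cells, so it gives no measure of free ERG RNA among VCaP droplets, which was not measured. In VCaP parental 71.7% of the 997 cells of any depth had one, at a median of 17817 UMIs. Thinned to 10000 UMIs each, 56.3% of the 815 cells still had one. One barcode was shared between each pair of libraries, and 0 of the 815 cells carried a barcode of another library.

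The groups differed in depth, with a median of 19155.5 UMIs in ERG-high and 16518 in ERG-undetected cells. Thinned to 10000 UMIs, the median of genes per cell was 3146.5 and 3107 (4537.5 and 4093 unthinned), and the mitochondrial share was at a median of 6.35% and 5.82%. Barcodes ending in N, a letter that names no definite base, made up 87.5% and 86.5%. How the N arose was not examined. Doublets were not identified.

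Both groups looked like luminal prostate cells. All 8 luminal markers were listed and 7 had at least 50 CPM, with ratios from 0.22 to 1.17, and the 3 immune markers listed had 0 UMIs in both groups. Endothelial cells are among the normal cell types that express ERG. The 5 endothelial markers listed summed to 26.2 CPM in ERG-high and 17.8 CPM in ERG-undetected cells, nearly all of it EGFL7 (23.9 and 16.8 CPM). Fibroblast markers summed to 19.6 and 26.6 CPM. Of the 2 basal markers listed, DST was at 98.2 and 87.4 CPM.

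The largest contrast lay in the cell cycle. ERG-high cells held far less RNA of mitotic genes than ERG-undetected cells. The list of G2M phase genes, whose products build the spindle and drive mitosis, summed to 3502 CPM in ERG-high and 16813 CPM in ERG-undetected cells, a ratio of -2.26 (-2.30 to -2.23). Of its 43 members with at least 50 CPM, 42 were lower past the fold and 0 higher, with a median ratio of -2.51. Over all 2955 genes compared the median ratio was -0.0018, with 235 genes lower past the fold (7.95%) and 106 higher (3.59%).

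The 10 genes with the lowest upper bounds, TOP2A and others picked by name left out, were all genes of mitosis. UBE2C, the ubiquitin-conjugating enzyme of the anaphase-promoting complex, was at 79.1 CPM in ERG-high and 825 CPM in ERG-undetected cells, a ratio of -3.37 (-3.60 to -3.18). After thinning it ranged from 0 to 14 UMIs a cell with a median of 0 in the former, and from 0 to 47 with a median of 4 in the latter. The ranges overlapped, since part of the undetected cells also lacked it. CCNB1 had a ratio of -3.40 (54.8 and 587 CPM), and KIF20A, a mitotic kinesin, one of -3.39 (17.2 and 190 CPM). The mitotic kinase AURKA was at 42.3 and 409 CPM and CDC20 at 19.6 and 192 CPM. CEP55, the spindle proteins DLGAP5 and TPX2, the nuclear importer KPNA2, and CDK1 had ratios from -3.25 to -2.91.

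The most abundant G2M genes followed them. HMGB2, a chromatin protein, was at 458 and 2640 CPM (-2.53, -2.62 to -2.44), and TOP2A (chromosome 17, 40388525 to 40417896), the topoisomerase that untangles DNA before division, was at 209 and 1644 CPM (-2.97, -3.11 to -2.85). SMC4, a condensin subunit, was lower by less, at 338 and 973 CPM (-1.52). MKI67, the proliferation antigen Ki-67, had a ratio of -1.94. TOP2A was seen in 57.8% of ERG-high and 84.8% of ERG-undetected cells after thinning, with medians of 1 and 11 UMIs a cell.

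Genes of DNA replication were lower too over all cells, by less. The S phase list summed to 2708 and 4297 CPM, a ratio of -0.67 (-0.71 to -0.63). Of 25 members 17 were lower past the fold and 0 higher, against 7.95% and 3.59% of all genes, with a median of -0.69. With tertiles of the share of S and G2M UMIs weighted equally in both groups the ratio of the S list turned to 0.31. That share counts the S genes themselves, so the weighting fixes this ratio in part. Without barcodes ending in N, which leaves few cells, the S ratio was 0.19. RRM2, the subunit of ribonucleotide reductase made in S phase, was lowest at -1.76 (27.8 and 96.2 CPM). PCNA, the sliding clamp of DNA polymerase, was at 261 and 423 CPM (-0.69), ATAD2, a chromatin ATPase, at -0.85, and CENPU, a kinetochore protein, was at 191 and 383 CPM. The licensing helicase subunit MCM6 (0.13, -0.13 to 0.39) and UNG, which removes uracil from DNA (0.32, 0.00 to 0.65), did not pass the fold.

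CDKN1A, CDKN1B and CDKN2D, inhibitors of the cycle chosen after their values were seen, were lower in ERG-high cells, at means under 50 CPM. CDKN1A, which encodes p21, was at 24.7 CPM in ERG-high and 73 CPM in ERG-undetected cells (-1.53, -1.98 to -1.17), CDKN1B, encoding p27, at 24.3 and 59.8 CPM (-1.27) and CDKN2D, encoding p19, at 5.09 and 28.6 CPM (-2.28). Of the 20 listed cyclins and inhibitors 4 had at least 50 CPM, with 0 past the fold, among them CCND1, cyclin D1, at 625 and 578 CPM (0.11). NMU, neuromedin U, a secreted peptide outside these lists, was at 24.7 and 123 CPM (-2.27, -2.72 to -1.94), and was named after its values were seen.

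**Figure D2:**
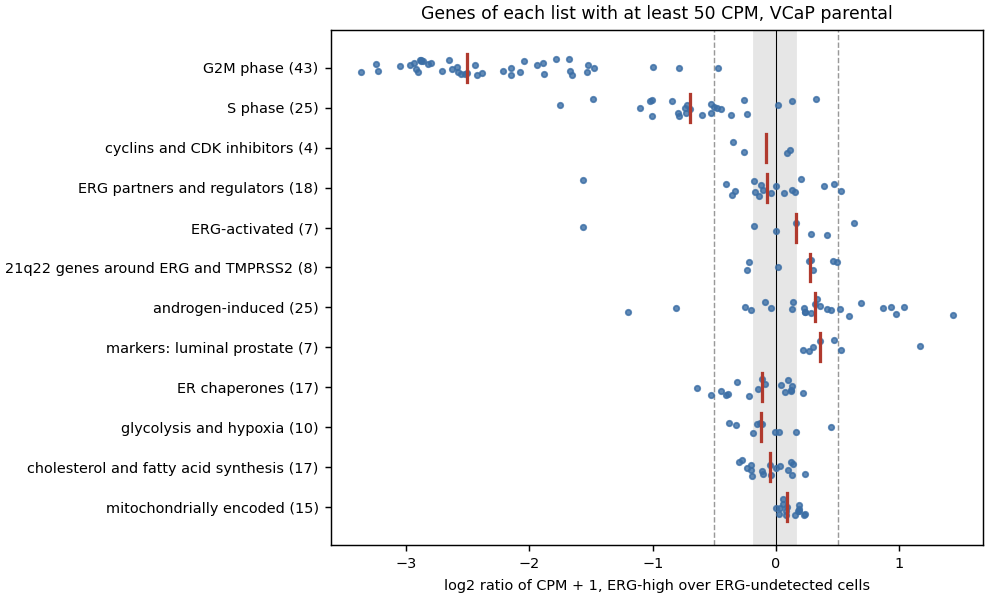
Log2 ratio of CPM + 1 (x axis), ERG-high over ERG-undetected cells of VCaP parental, for each gene with at least 50 CPM (dots) of 12 lists (y axis, number of genes in brackets). Red bars are medians, the grey band holds the middle of all 2955 genes (quartiles -0.18 and 0.16) and dashed lines mark the fold of 0.5. The G2M dots lie left of -0.5 except for 1 gene, and the androgen-induced dots lie mostly right of 0.

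The difference went with where the cells stood in the cycle. Split into tertiles by the share of UMIs from S and G2M genes, 84 ERG-high cells lay in the lowest, 38 in the middle and 6 in the highest tertile, against 41, 75 and 121 ERG-undetected cells. That is 65.6% (exact binomial interval 56.7 to 73.8) and 17.3% (12.7 to 22.7) in the lowest tertile, and 4.69% (1.74 to 9.92) and 51.1% (44.5 to 57.6) in the highest. Over all cells of a tertile, ERG was at 161 CPM in the lowest (149 to 172), 98.1 in the middle (89.7 to 107) and 50.8 in the highest (44.8 to 57.4). The median share of S and G2M UMIs was 0.388% in ERG-high and 1.94% in ERG-undetected cells. Lower ERG RNA per cell in S, G2 and M and a different cycling of cells low in ERG cannot be told apart here.

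Androgen-induced genes were higher in ERG-high cells. The list summed to 7434 CPM in ERG-high and 5044 CPM in ERG-undetected cells, a ratio of 0.56 (0.53 to 0.59). Of 25 members with at least 50 CPM, 8 were higher past the fold, 2 lower and 15 neither, with a median of 0.32. The shares over all genes compared were 3.59% higher and 7.95% lower. CENPN (-1.20), a kinetochore protein, and MPHOSPH9 (-0.81), a phosphoprotein of the M phase, were the 2 that were lower. Under scaling by TMM factors the median of all genes shifted to -0.11, 53 genes were higher and 329 lower (13.9% of the calls higher, against 31.1%), and the androgen-induced ratio was 0.45.

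KLK2 (chromosome 19, 50861568 to 50880567) was at 2286 CPM in ERG-high and 1165 CPM in ERG-undetected cells, a ratio of 0.97 (0.92 to 1.03). Thinned, ERG-high cells held 4 to 58 KLK2 UMIs with a median of 23.5, and ERG-undetected cells 0 to 61 with a median of 9. The ranges of cells overlapped almost wholly, with the medians apart. KLK2 lies beside KLK3, a gene of similar sequence, so reads may have been split between them, which was not tested. KLK3, prostate-specific antigen, was at 7.83 and 4.15 CPM, and KLK4, a kallikrein of the same cluster, was at 194 and 199 CPM (-0.04, -0.20 to 0.12).

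ACPP (named ACP3 today, chromosome 3, 132317369 to 132368302) encodes prostatic acid phosphatase, a classic secretory product of the gland, and stood in the luminal marker list. In that list 2 of 7 members were higher past the fold, against 3.59% of all genes. ACPP was at 2980 and 1328 CPM, a ratio of 1.17 (1.12 to 1.22). Its thinned counts ran from 1 to 80 UMIs with a median of 27.5 in ERG-high cells, and from 0 to 70 with a median of 10 in ERG-undetected cells. SLC45A3, which encodes the prostate membrane protein prostein, had the highest ratio of all genes past the fold, 1.44 (1.21 to 1.69), at 152 and 55.7 CPM. Among the ion and metal carriers, TRPM8, a cold-sensing calcium channel, was at 157 and 75.9 CPM (1.04), the metalloreductase STEAP2 had a ratio of 0.93 (0.80 to 1.07), its relative STEAP1 was at 810 and 538 CPM (0.59), and SLC30A4, a zinc transporter outside the list, at 89.6 and 42.7 CPM (1.05). ZBTB10, a zinc finger protein, at 0.69 and PLPP1, a lipid phosphatase, at 0.52 passed the fold by less.

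Of further members, FKBP5 and TPD52 did not pass the fold and PMEPA1 did. FKBP5, a co-chaperone of steroid receptors that is often read as a measure of androgen signalling, had a ratio of 0.29 (0.01 to 0.57) at 72.8 and 59.6 CPM. TPD52 had a ratio of 0.23 (0.13 to 0.33). PMEPA1, an inhibitor of TGF-β signalling, was past the fold at 298 and 163 CPM (0.87, 0.72 to 1.02).

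TMPRSS2 itself (chromosome 21, 41464300 to 41531116) was at 36.4 CPM in ERG-high and 15.1 CPM in ERG-undetected cells, a ratio of 1.21 (0.79 to 1.75). The UMIs of TMPRSS2 were few: thinned, 21.9% of ERG-high and 12.7% of ERG-undetected cells held one, and unthinned 46.9% of ERG-high cells did. Its RNA counts transcripts that end in TMPRSS2, and so not those of the fusion. Genes around ERG and TMPRSS2 on 21q22 differed little as a group. Their list of 26, ERG left out and TMPRSS2 included, summed to 2351 and 2197 CPM (0.10, 0.05 to 0.15), with 0 of 8 past the fold and a range from -0.23 to 0.49. ETS2, the ETS gene next to ERG, was at 3.91 and 2.44 CPM.

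Targets described for ERG showed a small difference. The ERG-activated list summed to 1459 and 1261 CPM, a ratio of 0.21 (0.15 to 0.27). Of 29 listed members 7 had at least 50 CPM. Against 3.59% higher and 7.95% lower among all genes, 1 of the 7 was higher and 1 lower past the fold. The higher was PLA1A, a phospholipase, at 178 and 114 CPM (0.63, 0.45 to 0.83). EZH2, the histone H3 methyltransferase of Polycomb and a gene that dividing cells express most, was the lower at 26.2 and 79.6 CPM (-1.57). CRISP3, a secreted cysteine-rich protein, was at 346 and 259 CPM (0.42, 0.29 to 0.55), TDRD1, a germline Tudor protein, at 175 and 156 CPM (0.16, -0.02 to 0.34), and the deacetylase HDAC1 at 179 CPM in both. CACNA1D, a calcium channel subunit, was at 20.4 and 7.08 CPM (1.40, 0.84 to 2.23), and SOX9, a transcription factor, at 21.1 and 21.2 CPM. VIM was not among the genes listed.

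Partners and regulators of ERG were mostly alike in the 2 groups. Of 18 with at least 50 CPM, the homeobox factor HOXB13 was higher past the fold (228 and 158 CPM, 0.52, 0.36 to 0.69) and EZH2 lower. Among all genes 3.59% were higher and 7.95% lower. FOXA1, the pioneer factor of the androgen receptor, was at 151 and 109 CPM (0.47). The DNA-end binding proteins XRCC5 and XRCC6 had ratios of -0.41 and -0.35. Among other ETS factors, ELK4, which lies next to SLC45A3 and forms read-through transcripts with it, was at 23.5 and 11.2 CPM, and EHF, an epithelial ETS factor, at 263 and 321 CPM (-0.29).

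Further genes given here lay outside these lists. The ranking fixed the number of leading higher genes at 10, so it does not show how many genes were higher. TP53INP1, a p53-induced protein with roles in growth arrest and autophagy, was at 153 and 58.3 CPM (1.38, 1.16 to 1.63), in 78.1% and 41.4% of thinned cells. TMEM45B, a membrane protein, was at 177 and 79.3 CPM (1.15). The mitochondrial iron importer SLC25A37 had a ratio of 0.88. NPY, the secreted neuropeptide Y, which prostate tumours can express in large amounts, was at 3365 and 1689 CPM (0.99, 0.95 to 1.04), with 0 to 204 UMIs in thinned ERG-high cells (median 23.5) and 0 to 102 in ERG-undetected cells (median 11). MYC, the growth-promoting transcription factor, was at 393 and 293 CPM (0.42). TTC6 had a ratio of 1.01 (0.67 to 1.40). CRISPLD1, at 97.4 and 51.5 CPM (0.91), rested on 1 cell, which held 40.2% of its UMIs in the ERG-high group, and its ratio was 0.24 without the top cell of each group. Among nuclear noncoding RNAs PCAT1 (0.72) and PCAT14 (0.65), both prostate cancer-associated, were higher past the fold, NEAT1 was at 1755 and 1304 CPM (0.43) and MALAT1 at 50281 and 45264 CPM (0.15).

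The cells between the 2 groups, which the ratio did not use, filled in the order for some lists and genes and not for others. From cells of 0 to those of 1, 2, 3 and at least 4 ERG UMIs, the G2M list summed to 16813, 11785, 10980, 8202 and 3502 CPM, and the androgen-induced list to 5044, 5622, 5818, 6223 and 7434 CPM. The first was lower and the second higher at every step. The S phase list went 4297, 4605, 3954, 3579 and 2708 CPM, so its highest level was at 1 ERG UMI. SLC45A3 went 55.7, 77.7, 100.2, 121 and 152 CPM, and TP53INP1 58.3, 82.6, 82.7, 106 and 153 CPM. TMPRSS2 went 15.1, 19.9, 32.7, 32.5 and 36.4 CPM, with the step between 1 and 2 UMIs. NPY went 1689, 2044, 1904, 2330 and 3365 CPM, so it was lower at 2 than at 1 UMI. PMEPA1 went 163, 201, 213, 191 and 298 CPM, and was lower at 3 than at 2. These classes also differ in cycle: 17.3% of cells of 0 ERG UMIs, 27.1% of 1, 36.1% of 2 and 39.3% of 3 lay in the lowest tertile. Across the threshold, the 89 cells of 3 ERG UMIs had 155 CPM of ERG and a median S and G2M share of 0.938%, and the 50 cells of 4 had 205 CPM and 0.394%.

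**Figure D3:**
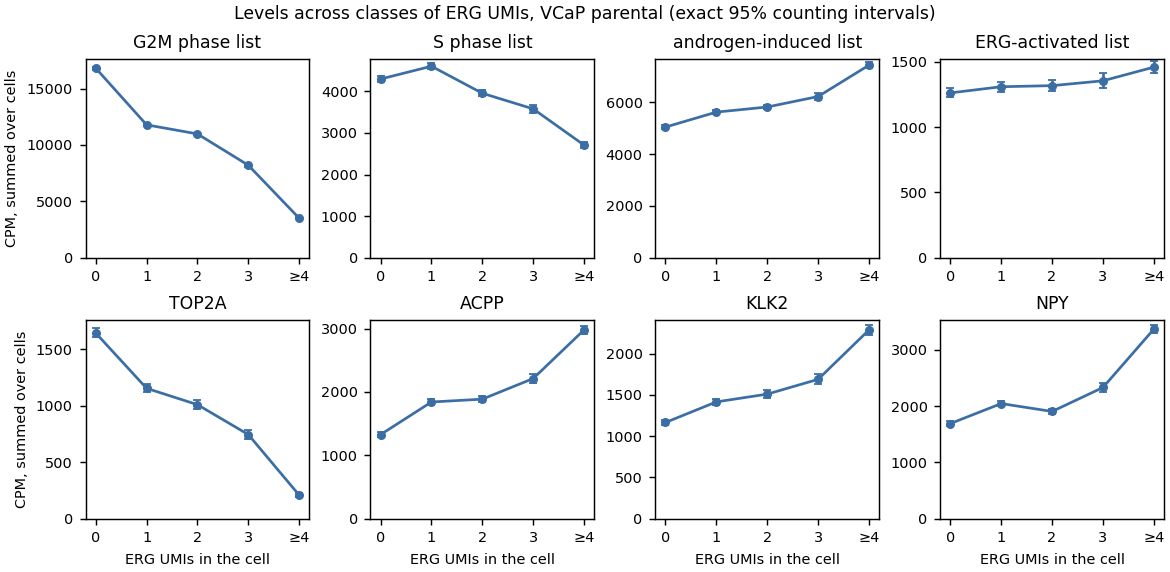
CPM summed over cells (y axis, from 0) in VCaP parental cells of 0, 1, 2, 3 and at least 4 ERG UMIs (x axis) for 4 lists and 4 genes, with exact 95% counting intervals. The G2M list and TOP2A are lower at each step, and KLK2 and ACPP are higher at each step, from 1165 to 2286 CPM and from 1328 to 2980 CPM. NPY is lower at 2 ERG UMIs (1904 CPM) than at 1 (2044 CPM).

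Within cells low in S and G2M genes most of these differences were smaller. In the lowest tertile, 84 ERG-high and 41 ERG-undetected cells had median S and G2M shares of 0.284% and 0.310%, and the G2M and S ratios, which the tertile fixes in part, were -0.03 and -0.06. In the highest tertile, with 6 ERG-high cells, the S ratio was 0.90 and the G2M ratio -0.79. The androgen-induced ratio was 0.23, against 0.56 over all cells, and 0.42 in the middle and 0.21 in the highest tertile. With the tertiles weighted equally in both groups it was 0.28. KLK2 had a ratio of 0.23 (0.15 to 0.32), ACPP 0.50 (0.42 to 0.59), STEAP2 0.62 (0.38 to 0.86) and NPY 0.39 (0.31 to 0.48) in the lowest tertile. All 4 were smaller than over all cells. STEAP1 was at 0.02 (-0.13 to 0.17) and MYC at -0.22 (-0.42 to -0.02) there. Among the mitotic genes CCNB1 was at -0.48 (-1.26 to 0.29) and TOP2A at 0.56 (-0.07 to 1.25).

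TP53INP1 (0.88, 0.49 to 1.30), TMEM45B (0.79, 0.43 to 1.19) and PLA1A (0.72, 0.36 to 1.09) were past 0.5 in the lowest tertile. TMPRSS2 was at 0.77 (0.03 to 1.62) there and at -0.10 (-1.10 to 0.85) in the middle one. The ERG-activated list had a ratio of 0.31 in the lowest tertile, 0.13 in the middle and 0.26 in the highest. In the lowest tertile 124 genes were higher past the fold (4.4% of 2819) and 64 lower (2.27%). Of the higher genes 35 were also higher over all cells, which is 28.2% of this list and 33% of the other, and of the lower genes 20 were also lower over all cells, which is 31.2% and 8.51%. NMU (-1.71, -2.46 to -1.08), the transcription inhibitor ID1 (-1.06, -1.36 to -0.77) and the chromatin proteins HMGN2 (-0.71) and H2AZ1 (-0.60), histone H2A.Z, were among the lower, and TMC5 (1.31, 0.76 to 1.95), a channel-like protein, and NEDD4L (1.12, 0.47 to 1.87), a ubiquitin ligase, among the higher. These 6 were named after their values in this tertile were seen.

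**Figure D4:**
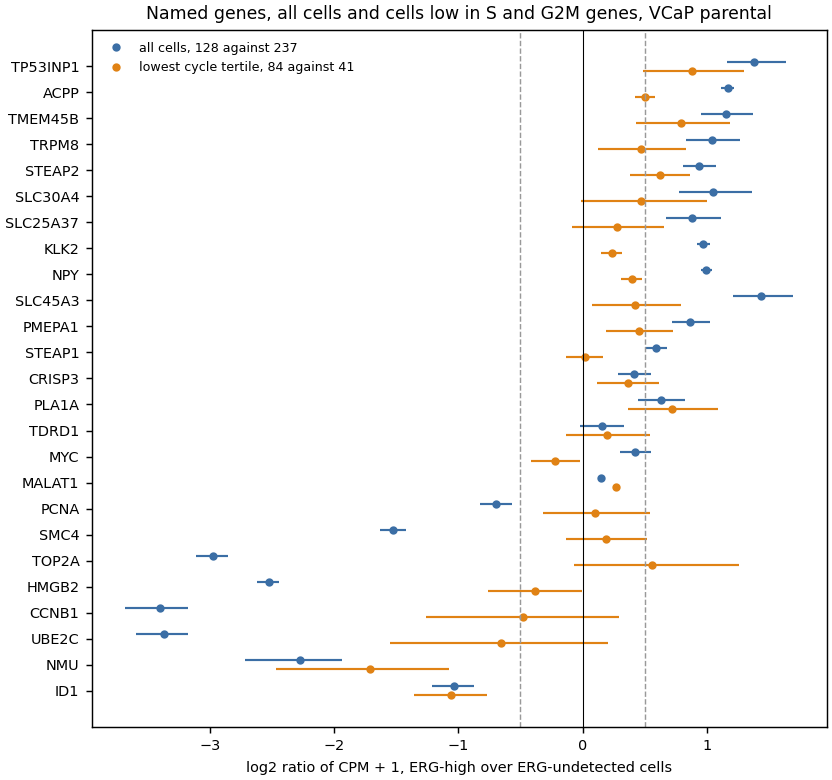
Log2 ratio of CPM + 1 (x axis), ERG-high over ERG-undetected cells of VCaP parental, for 25 genes (y axis) over all cells (blue, 128 against 237) and in the lowest tertile of S and G2M genes (orange, 84 against 41). Bars are exact 95% counting intervals. CCNB1 is at -3.40 over all cells and at -0.48 in the tertile, TP53INP1 and PLA1A stay above 0.5, and ID1 stays near -1.

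The same rule was applied to VCaP–ENZ48, which the choice of cells did not use. ERG was at 58.2 CPM over its 415 cells in the depth range, and 21 cells were ERG-high and 179 ERG-undetected. With ERG-high taken from 2 UMIs, 103 cells, 39 genes were higher past the fold (1.42% of 2750) and 6 lower (0.218%). Drug and library differ together between the 2 VCaP libraries, so their values stand side by side and were not compared.

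Cycle genes were lower in ERG-high cells of VCaP–ENZ48 as well, where the median S and G2M share was 0.168% in cells of at least 2 ERG UMIs and 0.179% in ERG-undetected cells. The G2M ratio was -0.46 from 2 UMIs and -0.70 from 4, and the S ratio -0.46 and -0.48. In the lowest tertile of that library they were -0.0032 and 0.016. The androgen-induced ratio was 0.24 at both thresholds and 0.23 in the lowest tertile, beside 0.56 and 0.23 in VCaP parental. From 2 UMIs ACPP had a ratio of 0.44 (0.40 to 0.48), KLK2 0.29 (0.24 to 0.34), STEAP2 0.43 (0.29 to 0.58) and SLC30A4 0.62 (0.37 to 0.89). NPY was at 0.99 (0.75 to 1.25) and SLC45A3 at 0.74. TP53INP1 (0.26), TMEM45B (0.21) and TRPM8 (0.04, -0.26 to 0.34), among the leading genes of VCaP parental, were below the fold. ID1 was at -0.49 and NMU at -2.46.

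**Figure D5:**
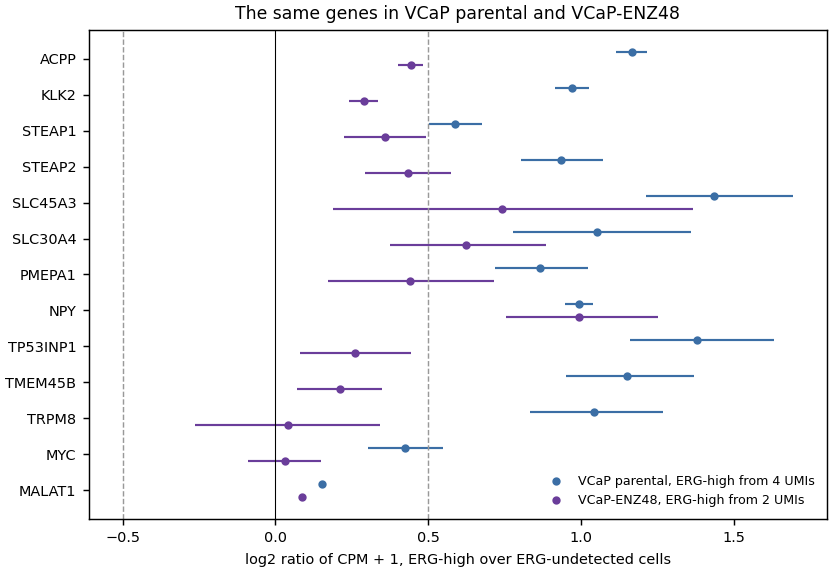
Log2 ratio of CPM + 1 (x axis), ERG-high over ERG-undetected cells, for 13 genes (y axis) in VCaP parental (blue, ERG-high from 4 UMIs) and VCaP–ENZ48 (purple, from 2 UMIs), with exact 95% counting intervals. ACPP, KLK2, STEAP1, STEAP2 and PMEPA1 lie above 0 in both, NPY is at 0.99 in both, and TRPM8 is at 1.04 and 0.04.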

How the data were processed

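Single-cell RNA was measured by Drop-seq in 3 libraries, 1 for each group. The authors deposited a matrix of UMI counts per gene and barcode for each, made with Drop-seq tools 2.3.0, STAR 2.7.3a and Picard 2.18.22 on GRCh38 with Gencode 33, at 1000 expected cells, per their methods and processing notes. The 3 matrices summed to 6513423 to 19533049 UMIs, and the 815 cells used to 14949224.

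Counts were summed over the cells of a group and turned into CPM (Python 3.11.15, numpy 2.4.6, pandas 2.3.3). Ratios of single genes used a pseudocount of 1 CPM, and genes under a mean of 50 CPM were left out of counts past the fold. Exact conditional and binomial 95% intervals came from scipy 1.17.1 and figures from matplotlib 3.10.9. Cells of 1 library are not replicates and PCR reads are not independent, so intervals cover counting error only. TMM factors (edgeR 4.0.16, R 4.3.3) and median-of-ratios factors (DESeq2 1.42.0) served as alternative scalings, with no test. The sums and intervals were tested on simulated data.

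The genes named were 20 picked by name around ERG, then, among the other genes with at least 50 CPM in either group, the 10 with the highest lower bound and the 10 with the lowest upper bound of the ratio, and the 3 most abundant members of each of 4 lists (G2M, S, androgen-induced and ERG-activated). Other list members given as examples were chosen after their values were seen, and 1 gene the rule names is not reported here. The cells and lists were chosen with earlier results of these data known. Positions are from Gencode 44 and promoters from RefSeq, GRCh38.p14. No per-sample column was left unused.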

Additional observations from a re-analysis of the deposited data

How the results depend on the processing

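No paired analysis was possible because all groups are single libraries. Depth limits genes under 50 CPM, and leaving out cells whose barcode is in another library changed nothing, as there were 0. The cycle tertiles taken singly, cycle sixths, ERG-high from 200 CPM, leaving out the top cell and the lowest tertile of VCaP–ENZ48 were chosen after seeing the data. Of 158 alternative values of the main results 76 moved little, 78 moved further and 4 with a main ratio of at least 0.5 in size turned direction. A smaller main ratio that changed sign was counted among those that moved. From VCaP–ENZ48 over all cells to its lowest tertile, S went from -0.48 to 0.016 and ERG-activated from 0.19 to -0.0075. The cause was not tested. In what follows values are for the androgen-induced, S and G2M lists in that order, unless named.

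With ERG-high from 3 UMIs they were 0.46, -0.49 and -1.64 with 60 genes higher, and from 5 UMIs 0.60, -0.83 and -2.38 (ERG-activated 0.30). With undetected as 0 or 1 UMIs they were 0.48, -0.71 and -2.04 with 58 genes higher. In cells of 10000 to 20000 UMIs they were 0.61, -1.03 and -2.42 (ERG-activated 0.28), in cells of 20000 to 30000 UMIs S was -0.33, G2M -2.31 and ERG-activated 0.082, and with depth bands weighted equally they were 0.59, -0.75 and -2.37. Thinned and then grouped they were 0.60, -0.96 and -2.58 (ERG-activated 0.33, 184 genes higher). S was -0.76 thinned with groups kept, -0.75 with cells weighted equally and -0.73 with ERG-high from 200 CPM, and G2M was -2.30 at no more than 10% mitochondrial UMIs. With TMM factors they were 0.45, -0.78 and -2.37 (ERG-activated 0.10, 53 genes higher), and with median-of-ratios factors 0.46, -0.77 and -2.37 (0.11, 56 genes higher), with 14.8% of calls higher in the latter. Totals without mitochondrial and ribosomal protein genes gave 0.59 for androgen-induced genes and 182 genes higher. At a minimum of 20 CPM 352 genes were higher and 421 lower, at 100 CPM 43 and 116, and with no minimum 3684 and 2908.

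With cycle tertiles weighted equally the lists were at 0.28, 0.31 and -0.69 with 99 genes lower, and with sixths at 0.29, 0.071 and -0.29 with 162 genes higher and 107 lower. In the lowest tertile they were 0.23, -0.060 and -0.027 (ERG-activated 0.31, 64 genes lower), in the middle 0.42, -0.32 and -0.51 (0.13, 139 lower), and in the highest, with 6 ERG-high cells, 0.21, 0.90 and -0.79 (556 higher, 387 lower). Without barcodes ending in N, which leaves few cells, they were 0.30, 0.19 and -1.32 with 241 genes higher. In VCaP–ENZ48 the G2M ratio was -0.46 from 2 UMIs, the androgen-induced ratio 0.32 with depth bands weighted equally, and in the lowest tertile G2M was -0.0032, S 0.016 and ERG-activated -0.0075.

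The median of S genes turned to 0.20 without N barcodes, 0.27 with tertiles and 0.080 with sixths weighted, and 0.99 in the highest tertile, and that of G2M genes to 0.065 in the lowest. Single genes turned direction too. Without N barcodes PCNA was at 0.22, CENPU 0.23, CRISPLD1 -1.46, TMC5 -0.15 and NEDD4L -0.20. With tertiles weighted PCNA was at 0.31, ATAD2 0.27 and CENPU 0.53, and with sixths EZH2 at 0.12, MKI67 0.11 and ATAD2 0.15. In the lowest tertile TOP2A was at 0.56, PCNA 0.10, AURKA 0.0015, CEP55 0.92, DLGAP5 0.16, KPNA2 0.22, SMC4 0.19 and CENPU 0.29, in the middle CRISPLD1 at -0.49 and AURKA 0.35, and in the highest PMEPA1 at -0.021, EZH2 0.16, PCNA 1.15, TRPM8 -0.32, ATAD2 0.74 and CENPU 1.07.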

Other observations

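Gene groups of metabolism and stress differed little between ERG-high and ERG-undetected cells of VCaP parental. Of the cholesterol and fatty acid synthesis genes 0 of 17 were past the fold (summed ratio -0.04), of glycolysis and hypoxia genes 0 of 10 (-0.13), of the heat shock and dissociation response 0 of 11 (-0.10) and of the 15 mitochondrially encoded genes 0 (0.10). Of 17 chaperones of the endoplasmic reticulum 2 were lower past the fold, against 7.95% of all genes. These were the co-chaperone DNAJB11 (-0.64) and the disulfide isomerase PDIA4 (-0.53). MHC class I and interferon genes summed to 973 and 1098 CPM (-0.17), WNT and NOTCH genes to 284 and 261 CPM (0.12), other ETS factors to 537 and 550 CPM (-0.04) and neuroendocrine markers to 311 and 273 CPM (0.19).

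Among lists the study used, its persistent clusters, which it defined on LNCaP cells and not on the VCaP cells compared here, had 183 of 367 genes lower past the fold and 5 higher, and its Persist signature 12 of 13 lower. Over all genes 3.59% were higher and 7.95% lower. Of all 235 lower genes 59 were in the S or G2M list. The study reported that some of its persistent clusters scored high for S and G2M genes. It took the Persist genes from cells described as stem-like, androgen-insensitive and driven by the cell cycle. It also transferred its cluster labels to VCaP parental, where most cells were labelled persistent. The initial clusters had 16 of 101 higher and 4 lower, the ENZ-induced clusters 8 and 2 of 113, and PROSGenesis 0 and 1 of 20. MYC targets had 1 higher and 18 lower of 175 in the first set and 0 and 1 of 28 in the second, and mTORC1 genes 0 and 6 of 24. The share of lower genes was near that of all genes in the first MYC set, and below it in the second, in PROSGenesis and in the initial and ENZ-induced clusters.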
